A study of Mus musculus with 6 samples.

Results

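The 8 genes described here, Rbp2, Aldh1a1, Rdh7, Dhrs3, Bco1, Isx, Lrat and Scarb1, act in the uptake and metabolism of vitamin A in the intestinal epithelium. They were chosen by gene symbol, and all 8 were found among the 32285 features of the deposited count tables. Cells of the small intestinal mucosa from mice with a deletion of HuR in the intestinal epithelium (IE-HuR-/-) and from control littermates were profiled by droplet-based single-cell RNA sequencing, in which a unique molecular identifier (UMI) tags every captured transcript. HuR is an RNA-binding protein encoded by Elavl1. IE-HuR-/- mice carried HuR fl/fl alleles and a Cre recombinase under the villin promoter, which is active in gut epithelium and not in immune cells. Controls carried the same floxed alleles without Cre by the study's methods, although their labels give the genotype as wild-type. All mice were C57BL/6 and aged 6 to 8 weeks, and food was withdrawn for 24 hours before tissue was taken. There were 3 libraries per label, each taken as 1 animal.

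Dietary β-carotene enters the enterocyte, the absorptive cell of the villus, and is split into retinal, which is bound, reduced to retinol, esterified with fatty acids and exported in chylomicrons. A smaller part of the retinal is oxidised to retinoic acid, a ligand of nuclear receptors. Retinoic acid made in the gut induces the transcription factor Isx, which lowers the uptake and cleavage of further carotenoid, and it also imprints lymphocytes for homing to the intestine.

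The 6 libraries held 60706 barcodes and 428980031 UMIs, between 66396951 and 91818560 UMIs in control libraries and between 59518012 and 65925616 in libraries labelled IE-HuR-/-. Cells with at least 2000 UMIs (30840 cells) were assigned to classes by the share of their UMIs on marker genes, which gave 17445 enterocytes, 643 goblet cells, 183 enteroendocrine cells, 110 tuft cells, 160 myeloid cells and 5718 T or NK cells. No member of the 8 was a marker. Elavl1 RNA itself was not lower in enterocytes of the libraries labelled IE-HuR-/-, with 27.0 ± 1.03 CPM in control and 31.8 ± 0.110 CPM in the other libraries (SD, n = 3), a log2 change of 0.24 that was 0.03 without TMM scaling. Gene counts do not show which exons were sequenced, so the deletion could not be checked from them, and every direction given here rests on the labels. Between 22 and 44 barcode sequences were shared by each pair of libraries, 435 in all.

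CPM (the usual depth-scaled UMI count, here over the sum of a class) was scaled by TMM, a method that sets the bulk of RNAs equal between libraries. In enterocytes the test of the label difference called 59.5% of all 12595 RNAs tested (edgeR quasi-likelihood test, Benjamini-Hochberg adjusted p under 0.05), and the libraries of the 2 labels did not overlap for 64.0% of them. A called member is therefore no rarity here, and the sizes and positions of the changes carry the description. Of the 8 members, 7 were called, 3 higher and 4 lower in libraries labelled IE-HuR-/-, and the libraries of the 2 labels did not overlap for these 7. The median log2 change of all 8 members was -0.07, against -0.01 for all RNAs tested. Without TMM scaling the median of all RNAs moved to -0.22, 4 of the 8 members were called, and all 4 were lower. The falls of Rdh7, Lrat, Dhrs3 and Aldh1a1 thus held on both scales, whereas the rises of Rbp2, Bco1 and Isx were rises relative to the bulk of RNAs.

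Rdh7 and Lrat had the largest falls among the members, and Rbp2 and Bco1 the largest rises. Their promoter sequences are shown because these members head the 2 directions. RefSeq start sites were listed for 7 of the 8 members, and each sequence runs over the 250 bases before a start, 5′ to 3′ on the strand of the gene, in GRCm38.p6 (mm10). Capitals mark matches to the hexamers AGGTCA (canonical) or AGTTCA (variant), bound by nuclear receptors, searched on both strands, and to TATAAA, the TATA box, on the sense strand. The Rbp2 sequence is chr9:98490287-98490536 (+), Bco1 chr8:117095615-117095864 (+), Rdh7 chr10:127888734-127888983 (-) and Lrat chr3:82903975-82904224 (-).
Rbp2: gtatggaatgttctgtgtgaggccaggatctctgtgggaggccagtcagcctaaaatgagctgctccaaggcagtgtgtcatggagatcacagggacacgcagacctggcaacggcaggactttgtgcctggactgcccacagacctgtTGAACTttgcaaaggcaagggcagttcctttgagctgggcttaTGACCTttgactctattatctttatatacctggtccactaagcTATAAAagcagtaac
Bco1: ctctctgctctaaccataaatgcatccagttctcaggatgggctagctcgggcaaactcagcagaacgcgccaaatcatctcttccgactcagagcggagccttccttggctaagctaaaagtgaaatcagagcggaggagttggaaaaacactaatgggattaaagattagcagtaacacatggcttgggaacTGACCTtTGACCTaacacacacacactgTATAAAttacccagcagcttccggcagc
Rdh7: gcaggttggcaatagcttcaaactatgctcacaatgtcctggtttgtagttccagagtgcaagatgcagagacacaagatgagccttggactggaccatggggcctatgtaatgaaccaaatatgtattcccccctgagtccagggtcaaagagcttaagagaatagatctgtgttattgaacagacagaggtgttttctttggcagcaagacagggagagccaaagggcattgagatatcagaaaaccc
Lrat: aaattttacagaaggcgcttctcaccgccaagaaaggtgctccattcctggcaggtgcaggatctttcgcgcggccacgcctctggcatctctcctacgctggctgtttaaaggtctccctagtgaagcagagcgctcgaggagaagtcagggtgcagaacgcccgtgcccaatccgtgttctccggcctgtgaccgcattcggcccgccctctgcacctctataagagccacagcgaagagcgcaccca
The Bco1 sequence held AGGTCA on the antisense strand at 56 and again at 49 bases before the start, a single base apart from each other, and a TATA box at 28 bases. The Rbp2 sequence held the variant hexamer at 101 bases and the canonical one at 58 bases, both antisense, and a TATA box at 15 bases. Neither Lrat nor this Rdh7 sequence held a match, while the sequence before the other listed Rdh7 start held the canonical hexamer at 105 bases, antisense. Among members not shown, the windows of Isx, which rose, and of Aldh1a1 and Dhrs3, which fell, held no match. The canonical hexamer was in windows of 3 of the 7 members with a listed start. This count is by gene, and these members had 11 windows, so it cannot be set against a share of windows. A link between matches and direction was not tested.

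Over 32851 mouse promoter windows of the same length, 14.0% held the canonical hexamer, 11.8% the variant and 7.59% the TATA box. TAATTA, a core recognised by many homeodomain proteins and searched on both strands, was in 4.84% of all windows and in 0 of the 11 windows of the members. These matches are letters in a window, and binding was not measured.

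Rdh7 encodes a short-chain dehydrogenase that oxidises retinol and steroids. It lies at chr10:127884028-127888817 on the minus strand (mm10, GENCODE M21) and overlaps no other annotated gene. Its level was 65.1, 68.2 and 75.2 CPM in the control libraries and 30.1, 31.6 and 31.7 CPM in libraries labelled IE-HuR-/-. The 3 libraries labelled IE-HuR-/- lay close together and far below the lowest control library. The log2 change was -1.16 (SE 0.050, edgeR adjusted p = 1.02e-17). Rdh7 is 1 of several near copies on chromosome 10. Its longest coding transcript shared between 83.4% and 86.9% identical bases over the aligned part with those of Rdh1, Rdh9, Rdh16, Rdh16f2 and Rdh19. How reads that match more than 1 of these genes were counted was not examined. The near copies did not move together. Rdh16f2 fell by 2.15 on the log2 scale, from 19.1 to 4.35 CPM (SE 0.0962, edgeR adjusted p = 2.42e-11), whereas Rdh16 rose by 0.66, from 6.05 to 9.61 CPM. Rdh9 rose by 0.13, from 72.1 to 78.8 CPM, and its sign turned without TMM scaling, to -0.08. The call of Rdh9 was also lost with no filter on low counts (0.09, edgeR adjusted p = 0.115) and without control replicate 2, control replicate 3 or IE-HuR-/- replicate 1 (adjusted p between 0.0583 and 0.131). Rdh1 and Rdh19 had 21 and 1 UMIs in all enterocytes and were not tested.

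Lrat, the enzyme that esterifies retinol, lies at chr3:82892579-82903973 on the minus strand and overlaps the antisense gene Rbm46os. Its level was 16.2, 15.1 and 14.2 CPM in control libraries and 8.44, 7.92 and 8.66 CPM in the others. No library overlapped, and the log2 change was -0.86 (SE 0.0660, edgeR adjusted p = 2.00e-12). Dhrs3, which reduces retinal back to retinol, lies at chr4:144892827-144928209 on the plus strand. It had 18.4, 16.0 and 17.9 CPM in control libraries and 13.7, 14.0 and 12.5 CPM in the others, a log2 change of -0.38 (SE 0.0650, edgeR adjusted p = 1.19e-05). The lowest control library stood above the highest library labelled IE-HuR-/-.

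Aldh1a1, which oxidises retinal to retinoic acid, lies at chr19:20492715-20643465 on the plus strand, with the antisense genes C730002L08Rik and Gm6684 inside its span. It had 315, 304 and 338 CPM in control libraries and 276, 268 and 288 CPM in the others. The fall was smaller than that of Rdh7 or Lrat, at -0.20 on the log2 scale (SE 0.0455, edgeR adjusted p = 3.02e-04). Aldh1a7, a near copy on the opposite strand of the same region (88.8% identical over 2036 aligned transcript bases), moved the other way, from 19.6 to 30.8 CPM, a log2 change of 0.65 (SE 0.0593, edgeR adjusted p = 1.93e-10). How reads that match both genes were counted was not examined.

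Rbp2, the binding protein that carries retinol and retinal in the enterocyte, lies at chr9:98486115-98509781 on the plus strand and overlaps Gm37113. It had 5694, 6297 and 6342 CPM in control libraries and 6818, 7714 and 7246 CPM in the others. Its log2 change was 0.25 (SE 0.0503, edgeR adjusted p = 1.29e-04) and 0.05 without TMM scaling, where it was not called (adjusted p = 0.420). Bco1, which cleaves β-carotene, lies at chr8:117095854-117133720 on the plus strand and overlaps Gm20694. It had 12.9, 11.5 and 14.1 CPM in control libraries and 15.3, 16.1 and 15.2 CPM in the others, a log2 change of 0.28 (SE 0.0671, edgeR adjusted p = 6.51e-04). Its call was lost without TMM scaling (0.08, adjusted p = 0.302) and over all epithelial cells together (0.16, adjusted p = 0.0513).

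Isx, the homeodomain repressor of carotenoid uptake, lies at chr8:74873173-74893506 on the plus strand and had 42.5, 39.6 and 43.5 CPM in control libraries and 48.6, 49.1 and 46.8 CPM in the others. The log2 change of 0.20 (SE 0.0458, edgeR adjusted p = 3.54e-04) was -0.00043 without TMM scaling. Scarb1, the receptor through which carotenoids and other lipids enter, lies at chr5:125277087-125341094 on the minus strand and overlaps Gm42633. It had 6.67, 5.68 and 6.91 CPM in control libraries and 7.03, 6.51 and 6.45 CPM in the others, and was the 1 member that was not called (0.06, SE 0.0820, edgeR adjusted p = 0.562). Under a stricter enterocyte gate Scarb1 was called higher (0.51, adjusted p = 5.20e-05), and without TMM scaling its sign turned (-0.15, adjusted p = 0.127).

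**Figure D1:**
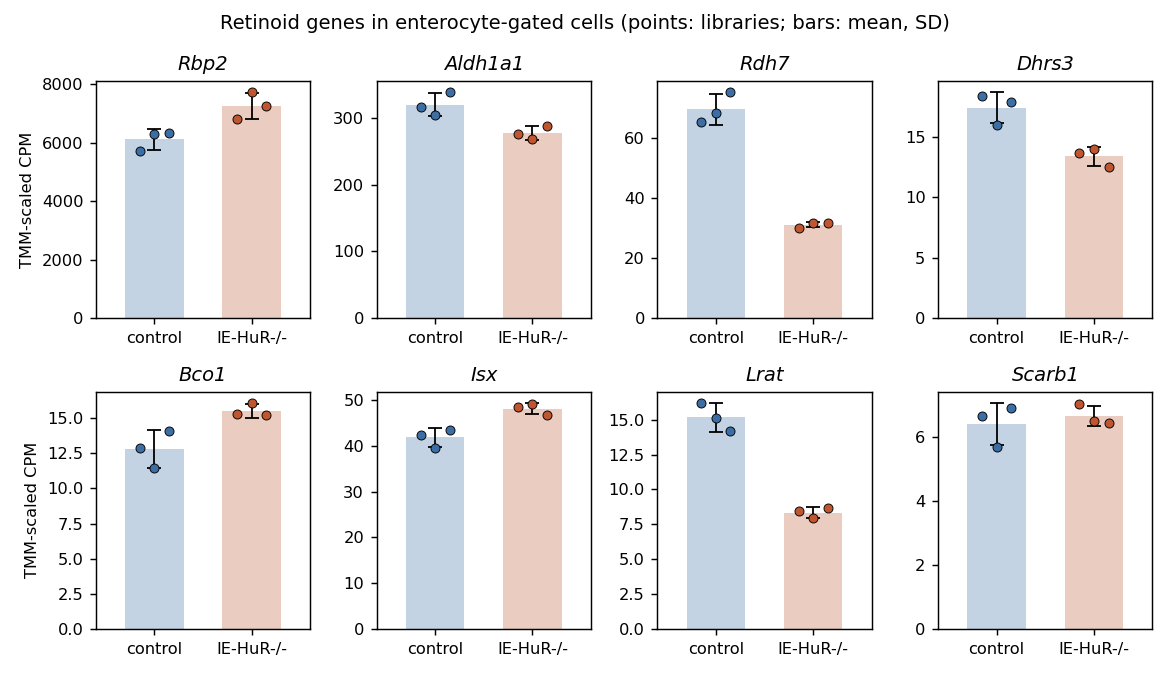
Level of the 8 retinoid genes in enterocytes, in TMM-scaled CPM from 0 on each axis; points are the 3 libraries of each label, bars their mean and lines the SD. Rdh7 (69.5 to 31.1 CPM) and Lrat (15.2 to 8.34 CPM) show the widest gaps between the labels, and the libraries overlap for Scarb1 alone.

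Lists of other genes moved in the same enterocytes, and their part in the results on the members was not tested. All 8 genes of a list of dissociation and stress genes (Fos, Jun, Junb, Egr1, Atf3, Hspa1a, Hspa1b and Dnajb1) rose, with a median log2 change of 0.90. Of 5 genes typical of proximal small intestine 3 fell and 1 rose. Of 6 tested genes of distal small intestine 4 rose, 0 fell and 2 were not called. In tip cells, a part of the enterocytes defined below, 2 of 5 proximal genes fell and 0 rose. Of 5 distal genes tested in tip cells 3 rose and 2 fell. In lower cells, also defined below, 3 of 5 proximal genes fell and 0 rose, and 5 of 6 distal genes rose and 0 fell. Of all RNAs tested, 59.5% were called in enterocytes, 57.9% in tip cells and 47.8% in lower cells. The counts of regional genes are therefore not read as particular to these lists. The length of intestine is not stated for each single-cell library, so region and label cannot be told apart. Of 14 T or NK markers 3 rose in enterocytes and 0 fell. The median share of mitochondrial UMIs per enterocyte lay between 10.6% and 11.4% in control libraries and between 9.06% and 11.2% in the others. In lower cells it lay between 1.85% and 7.29% in control libraries and between 5.35% and 6.24% in the others. In tip cells it lay between 13.5% and 14.0% in control libraries and between 12.8% and 15.3% in the others.

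The share of enterocytes with at least 1 UMI was compared after every cell was thinned to 2000 UMIs. For Rdh7 it was 8.88% ± 0.314 in control and 3.92% ± 0.16 in libraries labelled IE-HuR-/- (SD, n = 3). For Lrat it was 2.45% ± 0.339 and 1.17% ± 0.205, for Dhrs3 2.98% ± 0.422 and 1.89% ± 0.0273, and for Aldh1a1 38.8% ± 1.43 and 32.5% ± 1.43. Rbp2 was detected in 95.3% ± 0.507 and 94.3% ± 0.347 of enterocytes, so that its share with a UMI was lower while its CPM was higher, and no order is read from it. Isx was detected in 8.57% ± 0.416 and 9.28% ± 0.267. For these 6 members the exact two-sided permutation test of 3 against 3 gave the smallest p it allows, 0.1 (0.133 after Benjamini-Hochberg adjustment over the 8 members). The share of all RNAs that would reach this p was not computed. Summed enterocyte levels of the 2 labels did not overlap for 64.0% of all RNAs tested, so the count is not read as particular to the members. At 5000 UMIs a cell the difference of Isx was -0.0054 percentage points (exact permutation p = 1.0). Bco1 (2.27% and 2.46%, exact p = 0.7) and Scarb1 (0.947% and 1.06%, exact p = 0.5) overlapped. In T or NK cells, which should lack these genes, Rbp2 was still detected in 31.2% to 59.5% of cells at the same depth, Aldh1a1 in 3.79% to 10.5% and Rdh7 in 0.0930% to 3.12%. For Scarb1 the range in T or NK cells (0.372% to 0.924%) reached the enterocyte level, so its share at this depth was read as close to background. At 5000 UMIs a cell Scarb1 was detected in 2.88% ± 0.317 and 2.93% ± 0.327 of enterocytes (SD, n = 3). In T or NK cells it was then detected in 0.277% to 1.48%. Before thinning the enterocyte shares of Rdh7 ran from 30.3% to 37.3% in control and from 15.9% to 17.2% in the other libraries.

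Enterocytes change their programme as they move from the lower villus to the tip. To ask where along this path the members lie, enterocytes of each library were ranked by a score of 8 tip genes (such as Ada and Nt5e) minus 8 lower-villus genes (such as Ccl25 and Nlrp6), and split into 3 equal parts. The highest part is called tip and the lowest lower. None of the members was in the score. Median UMIs per tip cell lay between 11817.5 and 20690 in control and between 14405 and 16641.5 in the other libraries. For lower cells they lay between 6899 and 8663 and between 8017.5 and 9210. The part of depth and of the mitochondrial share in the zone results was not tested. Between tip and lower cells 79.5% of all RNAs tested were called, and all 8 members were, 7 of them also without TMM scaling, an alternative added after seeing the data. Rdh7 (-3.30, SE 0.214), Aldh1a1 (-2.68, 0.0847), Lrat (-0.95, 0.114), Rbp2 (-0.90, 0.147) and Dhrs3 (-0.76, 0.0879) were lower in tip cells, and Bco1 (2.07, 0.154) and Scarb1 (1.63, 0.130) were higher (log2, edgeR with library as a block, adjusted p between 5.87e-10 and 4.54e-04). Isx was called higher in tip cells with TMM scaling (0.27, SE 0.0596, adjusted p = 0.00176 by edgeR), and without it the value was -0.059 (adjusted p = 0.319), so no direction is given for Isx. Rdh7, Aldh1a1, Lrat, Rbp2 and Dhrs3 thus had their higher levels in lower cells, and Bco1 and Scarb1 in tip cells. Scarb1 was low throughout, at 3.29 and 8.87 TMM-scaled CPM in lower and tip cells of control libraries, against 2.29 CPM in T or NK cells. Zone values are given for the members only, so this is no statement about carotenoid uptake and cleavage as a whole.

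Over 10 equal bins of the score, on unscaled CPM, the profiles were graded. In control libraries mean Rdh7 fell from 193 CPM in the lowest bin to 5.82 CPM in the highest, and Aldh1a1 from 791 to 29.5 CPM. Lrat stayed between 16.5 and 22.9 CPM in the lower 8 bins and then fell to 8.81 and 4.68 CPM. Bco1 rose from 2.11 CPM in the lowest bin to a peak of 24 CPM in bin 7 and was at 14.1 CPM in the highest. Isx was at 54.6 CPM in the lowest bin, 38.8 CPM in bin 6 and 47.5 CPM in the highest, a shallow trough with high values at both ends. The libraries of the 2 labels did not overlap, with IE-HuR-/- lower, in all 10 bins for Rdh7 and Lrat, in 8 for Dhrs3 and in 6 for Aldh1a1. In bins 9 and 10 mean Rdh7 was 15.3 and 5.82 CPM in control and 3.46 and 1.12 CPM in the other libraries. In T or NK cells, which should lack these genes, Rdh7 was at 10.2 and 1.70 TMM-scaled CPM. The part of free RNA in the upper bins was not tested. For Rbp2 the libraries labelled IE-HuR-/- were lower in bin 1 (mean ratio 0.611) and higher in 6 bins (1.54 in bin 8). For Bco1 they were lower in bins 1 and 10 (0.670 and 0.695), higher in bin 5 (1.82) and overlapped in 7. Mean Bco1 in bin 1 was 2.11 CPM in control and 1.41 CPM in the other libraries. These values are near the 1.71 and 1.62 TMM-scaled CPM in T or NK cells. Isx was lower in 1 bin, higher in 1 and overlapped in 8. Scarb1 overlapped in all 10 bins. Of all RNAs with at least 60 UMIs, the labels did not overlap for 53.0%, 43.9%, 44.1%, 45.0%, 46.7%, 45.5%, 47.7%, 51.5%, 57.4% and 56.1% in bins 1 to 10. These shares are for either direction. On the unscaled values of all enterocytes 6340 RNAs were called lower and 1854 higher, with a median log2 change of -0.22. Lower values were thus the more common direction on this scale.

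**Figure D2:**
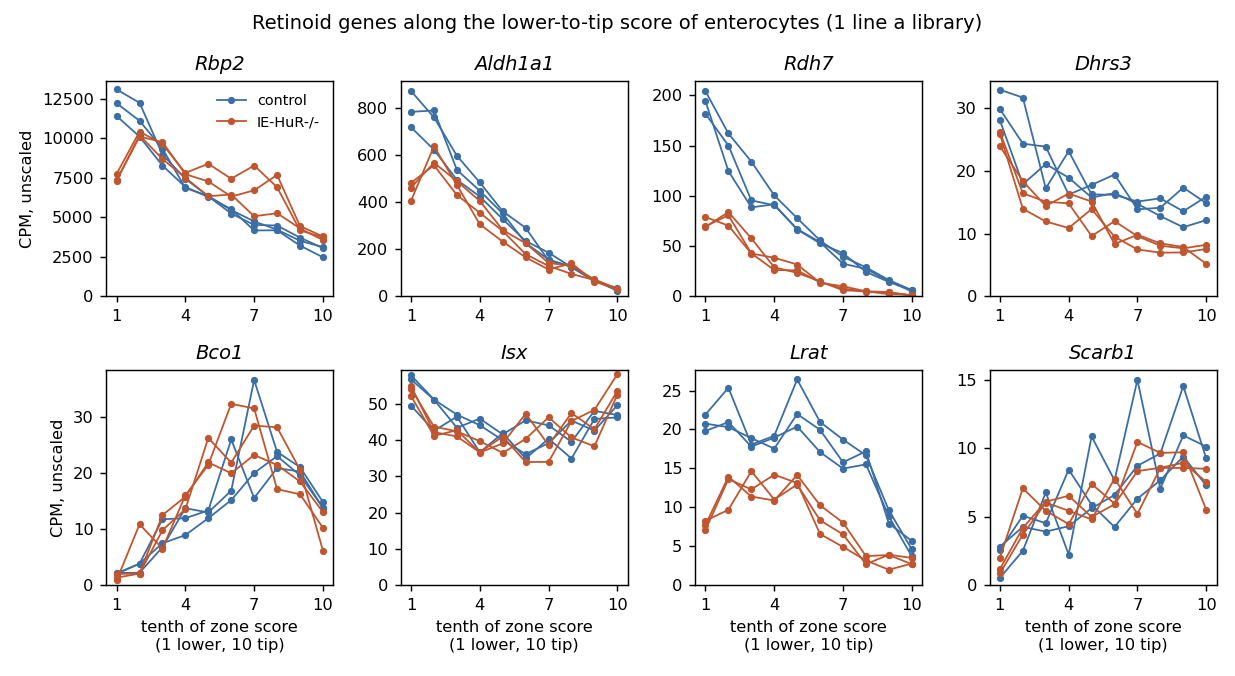
Level of the 8 retinoid genes (unscaled CPM, axes from 0) in 10 equal bins of enterocytes ordered from lower villus (1) to tip (10), with 1 line per library. The Rdh7 and Lrat lines of the 2 labels are separate in all 10 bins, and the Rbp2 lines cross, with libraries labelled IE-HuR-/- lower in bin 1 and higher in bins 6 to 10. In bin 10 mean Rdh7 (5.82 CPM in control and 1.12 CPM in the others) was below its T or NK level (10.2 and 1.70 TMM-scaled CPM).

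The label difference depended on the position. In tip cells 57.9% of all RNAs tested were called (63.1% without overlap between the labels) and 5 of the 8 members were, and in lower cells 47.8% were called (55.8% without overlap) and 4 of the members were. Rbp2 in tip cells had 3033, 3361 and 3433 CPM in control libraries and 4609, 5408 and 5462 CPM in the others, a log2 change of 0.66 (SE 0.0767, edgeR adjusted p = 1.84e-04). In lower cells it had 9231, 10274 and 10628 CPM in control and 9054, 9535 and 9046 CPM in the others, a log2 change of -0.12 that was not called (edgeR adjusted p = 0.0978) but was called without control replicate 1 (-0.19) and without TMM scaling (-0.28). The rise of Rbp2 over all enterocytes was thus that of cells above the lower villus.

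Rdh7 fell by 2.23 on the log2 scale in tip cells (SE 0.115, edgeR adjusted p = 3.57e-16), from 14.3, 15.4 and 16.4 CPM to 3.23, 3.09 and 3.48 CPM. In T or NK cells, the reference for free RNA, Rdh7 was at 10.2 ± 6.1 CPM in control and 1.70 ± 0.573 CPM in the other libraries (SD, n = 3). These values are not far below the tip levels. T or NK cells had fewer UMIs per cell (medians 4293.5 to 5562 in control and 4484.5 to 5088 in the others) than tip cells. CPM thus do not compare free RNA per cell, and the part of free RNA in the fall in tip cells was not tested. In lower cells Rdh7 fell by 1.06 (SE 0.0627), from 142 ± 13.1 to 68.3 ± 3.10 CPM (SD, n = 3). Lrat fell by 1.35 in tip cells, from 9.17 ± 0.532 to 3.62 ± 0.563 CPM, and by 0.77 in lower cells, from 19.0 ± 1.11 to 11.2 ± 0.0668 CPM (SD, n = 3). In T or NK cells Lrat was at 2.51 ± 1.01 and 0.510 ± 0.311 CPM, and the part of free RNA in its falls was not tested. Dhrs3 fell by 0.71 in tip cells, from 13.1 ± 1.57 to 7.99 ± 0.502 CPM, and by 0.28 in lower cells, from 24.3 ± 2.01 to 20.01 ± 1.43 CPM (SD, n = 3). The call of Dhrs3 in lower cells was lost without IE-HuR-/- replicate 3 (-0.22, edgeR adjusted p = 0.0630).

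Aldh1a1 went the other way. It fell by 0.32 in lower cells (SE 0.0540, edgeR adjusted p = 1.10e-05), from 644 ± 54.6 to 515 ± 8.06 CPM (SD, n = 3), and was 69.8 ± 1.84 and 73.8 ± 4.47 CPM in tip cells, where it was not called (0.08, edgeR adjusted p = 0.209). In tip cells its sign turned without TMM scaling, to -0.15. In T or NK cells Aldh1a1 was at 37.3 ± 17.1 CPM in control and 20.9 ± 2.17 CPM in the other libraries (SD, n = 3). The part of free RNA in its tip levels was not tested. Isx rose by 0.34 in tip cells, from 40.9 ± 1.78 to 51.7 ± 3.36 CPM, and was 46.7 ± 2.17 and 49.0 ± 0.16 CPM in lower cells (SD, n = 3), where it was not called. The rise of Isx in tip cells was not called without TMM scaling (0.11). Bco1 and Scarb1 were called in neither part, with Bco1 at 17.7 ± 2.16 and 18.6 ± 1.87 CPM in tip cells (SD, n = 3). Bco1 in lower cells was called higher without control replicate 1 (0.57, edgeR adjusted p = 0.0122).

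The difference between the 2 positions was itself tested as an interaction of zone and label, for which 28.4% of all RNAs tested were called. It was called for 6 of the 8 members, namely Rbp2 (0.76, SE 0.0535, edgeR adjusted p = 8.19e-12), Aldh1a1 (0.37, 0.0670), Isx (0.25, 0.0697), Rdh7 (-1.20, 0.109), Lrat (-0.60, 0.151) and Dhrs3 (-0.45, 0.116), with positive values for a label difference that was higher in tip than in lower cells. Bco1 (-0.18) and Scarb1 (-0.22) were not called. The positions are ranks within a library. Of the 8 tip genes of the score 7 rose and 1 fell in enterocytes of libraries labelled IE-HuR-/-, and of the 6 tested lower genes 4 rose and 2 fell, so that equal ranks need not be equal places on the villus, and the part of this in the interaction was not tested. When the score was cut at the same values in all libraries, tip cells made up 28.4% to 30.2% of enterocytes in control and 36.8% to 41.2% in the other libraries, and the interaction of Lrat was no longer called (-0.33, edgeR adjusted p = 0.112).

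**Figure D3:**
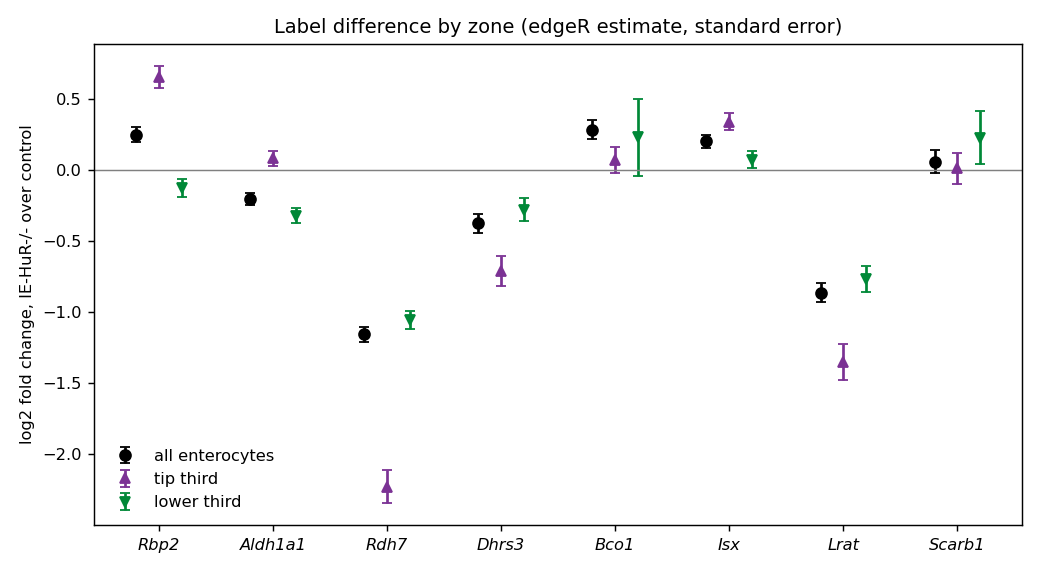
Log2 fold change of IE-HuR-/- over control for the 8 members in all enterocytes, in tip cells and in lower cells; points are edgeR estimates and lines 1 SE either side. Rdh7, Lrat and Dhrs3 lie lowest in tip cells, and Rbp2 and Isx highest there.

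Levels by class are given on unscaled CPM, and tests against enterocytes had the library as a block. The T or NK cells serve as a reference for RNA that is free in the suspension. They were shallower than enterocytes, so CPM compare shares of UMIs and not free RNA per cell. Against T or NK cells 90.1% of all RNAs tested were called and all 8 members were higher in enterocytes, by 5.08 for Rbp2 and 2.54 for Scarb1 on the log2 scale and by between 3.99 and 4.52 for the other 6. Rbp2, at 6554 ± 382 CPM in control enterocytes (SD, n = 3), was at 507 ± 49.1 CPM in goblet, 591 ± 337 CPM in enteroendocrine and 410 ± 146 CPM in T or NK cells of the same libraries. In the other libraries goblet cells had 335 ± 44.2 CPM, enteroendocrine cells 577 ± 181 CPM and T or NK cells 368 ± 47.5 CPM (SD, n = 3). Free RNA itself differed with the label for Rdh7, which had 10.2 ± 6.1 and 1.70 ± 0.573 TMM-scaled CPM in T or NK cells (SD, n = 3), a log2 change of -2.59 (edgeR adjusted p = 0.0327, with 4.53% of all RNAs tested called). This call was lost without control replicate 1 (adjusted p = 0.102) or without any library labelled IE-HuR-/- (adjusted p between 0.112 and 0.187). Lrat, too low to be tested there, had 2.51 ± 1.01 and 0.510 ± 0.311 TMM-scaled CPM in T or NK cells (SD, n = 3). Of 21 other pathway genes tested there, 3 were called lower and 0 higher. The part of free RNA in the falls of these genes in enterocytes was not tested.

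Goblet cells, which secrete mucus, shared Isx with enterocytes. Isx was at 35.1, 33.0 and 37.5 CPM in goblet cells of control libraries and at 36.1, 28.2 and 37.0 CPM in the others, against 44.9 ± 2.24 and 44.9 ± 0.493 CPM in enterocytes (SD, n = 3) and 4.16 ± 1.45 and 3.37 ± 0.430 CPM in T or NK cells. The difference of enterocyte over goblet was not called (0.15 on the log2 scale, SE 0.0961, edgeR adjusted p = 0.201) and was called without TMM scaling (0.37, adjusted p = 0.00227). The other 7 members were higher in enterocytes than in goblet cells, with 59.1% of all RNAs tested called in this comparison. For the label difference in goblet cells 16.7% of all RNAs tested were called (33.2% without overlap between the labels), and of 4 members tested Rbp2 (-0.52, edgeR adjusted p = 0.00298) and Aldh1a1 (-1.24, edgeR adjusted p = 9.70e-04) were lower. On the TMM scale Rbp2 in goblet cells was at 500 ± 55.2 and 347 ± 36.8 CPM and Aldh1a1 at 30.2 ± 4.87 and 12.3 ± 3.68 CPM, against 418 ± 160 and 366 ± 44.8 CPM for Rbp2 and 37.3 ± 17.1 and 20.9 ± 2.17 CPM for Aldh1a1 in T or NK cells (SD, n = 3). These CPM are near or below those of T or NK cells, and the differences are not read as changes of goblet cells. Median UMIs per goblet cell lay between 10714 and 16862 in control and between 11682 and 17869.5 in the other libraries. For T or NK cells they lay between 4293.5 and 5562 and between 4484.5 and 5088. At such unlike depths CPM do not compare the amount of free RNA per cell, and that amount was not measured. Of the 15 enterocyte markers 11 also fell and 0 rose in goblet cells, and their part in the falls of Rbp2 and Aldh1a1 was not tested. Isx was not called there (0.03).

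Enteroendocrine cells, which release hormones, held more Scarb1 and Bco1 than enterocytes. Scarb1 was at 45.2, 87.0 and 79.2 CPM in their control libraries and 59.5, 79.1 and 33.3 CPM in the others, and every one of these values was above the highest enterocyte library, 7.42 CPM. The difference of enterocyte over enteroendocrine was -2.31 on the log2 scale (SE 0.184, edgeR adjusted p = 3.13e-10) and -3.27 without TMM scaling. Bco1 was at 45.2, 48.0 and 53.9 CPM and at 61.5, 36.9 and 57.7 CPM, again above every enterocyte library (12.3 to 15.1 CPM), with -0.88 (SE 0.147, edgeR adjusted p = 1.60e-05) and -1.84 without TMM scaling. The other 6 members were higher in enterocytes, with 74.3% of all RNAs tested called. For the label difference in enteroendocrine cells 0.215% of all RNAs tested were called and 0 of 5 members tested were. Enteroendocrine cells with a UMI of Tph1, the enzyme of serotonin synthesis in enterochromaffin cells, and those without one were then described separately, with counts pooled over the libraries and no test. Isx was at 28.1 CPM (60 UMIs in 118 cells, exact 95% Poisson interval 21.4 to 36.2) with Tph1 and 2.95 CPM (4 UMIs in 65 cells, 0.804 to 7.55) without. Intervals cover counting error only.

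Tuft cells, a chemosensory class, and myeloid cells held 0 Bco1 UMIs in all 6 libraries, in 1889267 and 1404634 UMIs. Against a floor of 3 UMIs over the class, Bco1 was at least 8.80-fold higher in enterocytes than in tuft cells and at least 6.54-fold higher than in myeloid cells. Of all RNAs tested 64.2% were called between enterocytes and tuft cells, and 7 of the 8 members were higher in enterocytes, with Scarb1 not called (1.00, adjusted p = 0.0533 by edgeR). In tuft cells 0.209% of all RNAs tested were called for the label and 0 of 2 members tested were. Isx in tuft cells was at 12.6 CPM in its highest library and at 0 in 2 libraries. In the 81 crypt progenitor cells, too few for a test, Isx was at 72.1 ± 14.8 CPM in control and 50.8 ± 21.3 CPM in the other libraries (SD, n = 3), from 53 and 25 UMIs.

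**Figure D4:**
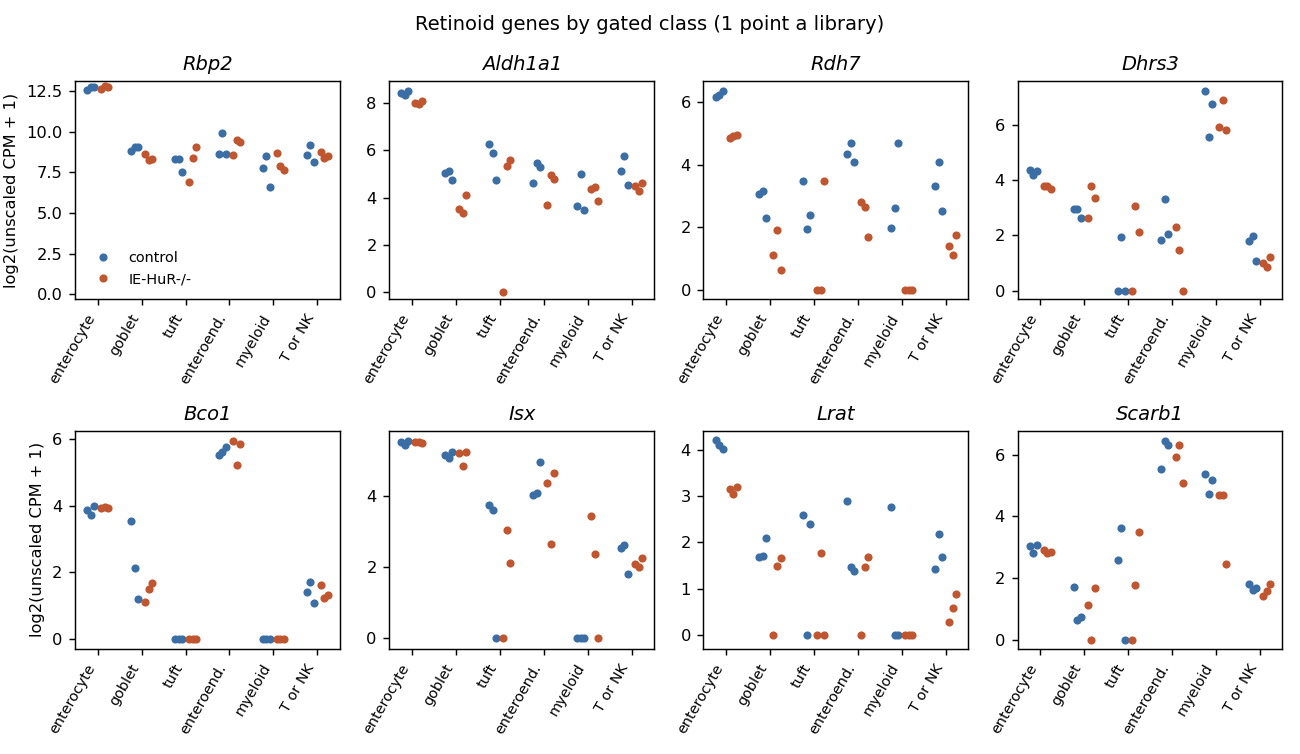
Level of the 8 members on a log2 scale (log2 of unscaled CPM + 1) in 6 gated classes, with 1 point per library. Scarb1 and Bco1 are highest in enteroendocrine cells, Dhrs3 in myeloid cells, and Isx is at like levels in enterocytes and goblet cells.

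Myeloid cells of the lamina propria, macrophages and dendritic cells, include cells known to make and to clear retinoic acid. Dhrs3 was at 147, 46.4 and 105 CPM in myeloid cells of control libraries and at 59.4, 116 and 54.4 CPM in the others, and every value was above the highest enterocyte library, 19.8 CPM. The difference of enterocyte over myeloid was -1.72 for Dhrs3 (SE 0.226, edgeR adjusted p = 1.17e-08) and -1.21 for Scarb1 (SE 0.345, edgeR adjusted p = 0.00216), with 65.6% of all RNAs tested called. Scarb1 was at 40.4, 25.8 and 34.9 CPM in control libraries and 24.7, 24.9 and 4.54 CPM in the others, from 26 and 12 UMIs. Pooled over the libraries, Dhrs3 was at 195 CPM (104 UMIs, exact 95% Poisson interval 159 to 236) in the 51 myeloid cells with a UMI of the complement genes C1qa, C1qb or C1qc, which mark macrophages, and at 33.3 CPM (29 UMIs, 22.3 to 47.8) in the 109 cells without one. Aldh1a2, the retinal dehydrogenase of intestinal dendritic cells, stood the other way, at 11.2 CPM (6 UMIs, 4.13 to 24.5) and 37.9 CPM (33 UMIs, 26.1 to 53.2), although not in control replicate 2 (21.8 and 13.5 CPM). The 2 enzymes act in opposite directions on retinal. For the label difference 0.190% of all RNAs tested were called in myeloid cells and 0 of 2 members tested were. Dhrs3 had a log2 change of -0.39 (SE 0.424, edgeR adjusted p = 0.970).

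The 50 other genes of the pathway were taken from a list made by role, and 33 passed the filter on low counts in enterocytes, of which 10 were higher and 15 lower, against the 59.5% of all RNAs called. Both other uptake genes tested fell. Cd36, a fatty acid and carotenoid receptor, went from 123 ± 3.85 to 49.3 ± 1.57 CPM (SD, n = 3), a log2 change of -1.32 (SE 0.0474, edgeR adjusted p = 3.27e-20), and Stra6l, a retinol transporter, from 0.580 to 0.201 CPM (-1.50), a call lost over all epithelial cells (-0.21, edgeR adjusted p = 0.250). Bco2, which cleaves carotenoids eccentrically, went from 29.7 to 19.4 CPM (-0.61). Among binding proteins Rbp7 rose from 0.193 to 0.659 CPM (1.71), a call also lost over all epithelial cells (0.52, edgeR adjusted p = 0.30), and Rbp4 (-0.43) was not called.

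Of 15 oxidoreductases of retinol and retinal tested, 8 fell, 3 rose and 4 were not called. Adh1, an alcohol dehydrogenase that oxidises retinol, went from 186 to 108 CPM (-0.78), Adh4 from 5.0 to 2.25 CPM (-1.14), Adh7 from 1.04 to 0.478 CPM (-1.12) and Adh5 from 24.6 to 21.5 CPM (-0.19). Rdh11, which reduces retinal, went from 12.2 to 7.20 CPM (-0.76), Dhrs4 from 65.6 to 50.7 CPM (-0.37) and Rdh10, which oxidises retinol, from 18.6 to 15.6 CPM (-0.26). Dhrs9, a retinol dehydrogenase, rose from 0.681 to 1.68 CPM (1.28). The call of Adh5 was lost without IE-HuR-/- replicate 1 (-0.14, edgeR adjusted p = 0.0515).

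Of 5 other genes of ester synthesis and hydrolysis tested 4 rose and 0 fell. Those that rose were Pnliprp2 (from 11.4 to 25.9 CPM, 1.18), Plb1 (from 267 to 360 CPM, 0.43) and Lipe (from 81.0 to 107 CPM, 0.40), which encode lipases, and Dgat1 (from 640 to 766 CPM, 0.26). Dgat1 is an acyltransferase that can esterify retinol. Dgat2 was not called. Dgat1 was not called without TMM scaling (0.06). Of 4 retinoid receptor genes tested, Rara (from 31.8 to 21.8 CPM, -0.54), Rarg (from 0.426 to 0.168 CPM, -1.34) and Rxra (from 59.3 to 51.9 CPM, -0.19) fell and Rxrb (-0.04) was not called. Of 2 further retinoic acid responsive genes tested 1 was called higher and 1 was not called. The called gene was Tgm2, a transglutaminase known to be induced by retinoic acid, which rose from 9.47 to 56.6 CPM (2.58, SE 0.0572, edgeR adjusted p = 9.45e-25). Tgm2 was also called higher in myeloid cells (from 50.7 to 221 CPM, 2.17, edgeR adjusted p = 0.0283), a call that did not survive leaving out replicate 1 or 3 of either label. Tgm2 responds to many signals, and retinoic acid was not measured. The retinoic acid-degrading enzymes Cyp26a1, Cyp26b1 and Cyp26c1 had 10, 27 and 0 UMIs in all enterocytes and were not tested.

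**Figure D5:**
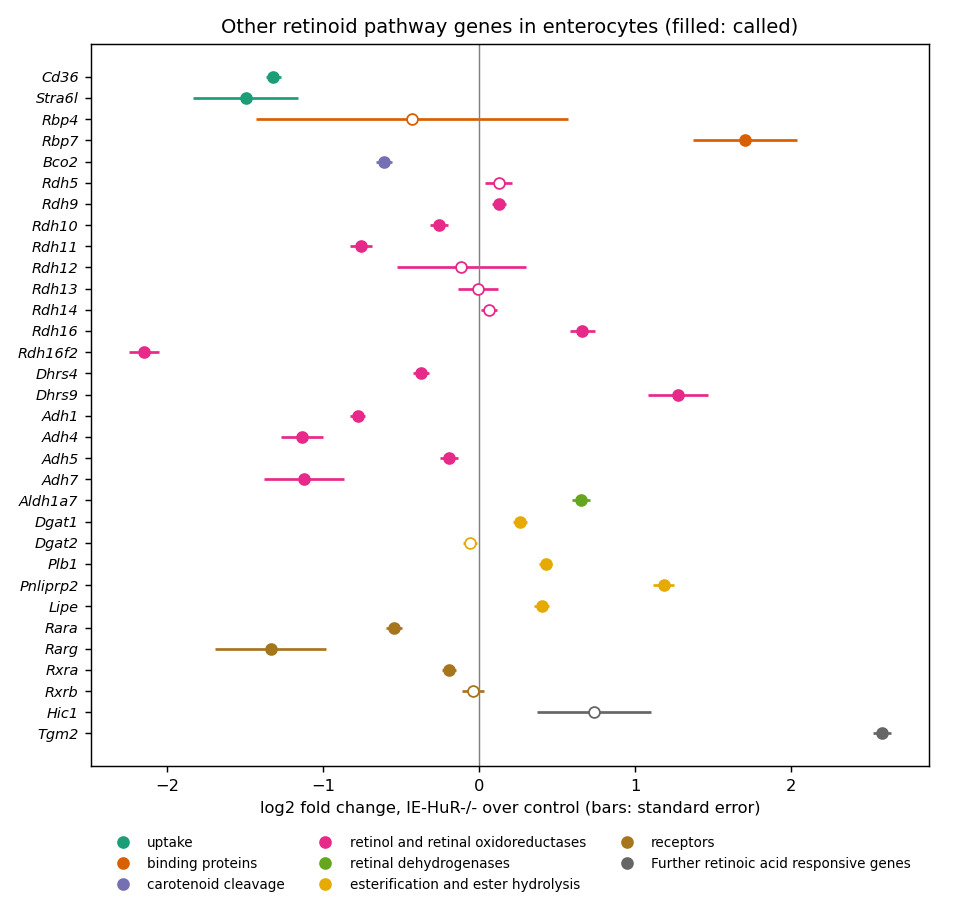
Log2 fold change of IE-HuR-/- over control in enterocytes for 32 other retinoid pathway genes tested, coloured by role; lines are 1 SE either side, and filled points were called. Rdh16f2 has the lowest value (-2.15) and Tgm2 the highest (2.58), and the ester genes lie at or above 0 except Dgat2 (-0.06).

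Genes whose log2 levels over 33 sums of class and library ran most like each member were sought among 9928 genes. Rbp2 ran most like Gk and Apoa1 (Pearson r = 0.97 and 0.96), Aldh1a1 like Tkfc (0.95) and Rdh7 like Cyp2c55 (0.90). Dhrs3 ran most like Plbd1 and H2-Ab1 (0.91 and 0.85), Bco1 like Kif1b (0.94) and Isx like Lgr4 (0.95). Lrat ran most like Aqp1 (0.89) and Scarb1 like Ctsl (0.91). Apoa1 was a marker of the enterocyte class, so its levels across classes were in part set by the choice of cells. Sums of 1 library share its preparation and depth, and the values are a description of likeness across these classes.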

How the data were processed

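Single cells of the small intestinal mucosa were profiled in 6 droplet libraries, 3 per label. The values that the authors deposited are whole UMI counts for every gene in every barcode; the submitters' processing notes name Cell Ranger, Seurat and mm10, and the labels and the study's methods differ on the kit (5′ or 3′ chemistry). The cells were prepared with EDTA and an enzyme, and villus-rich and crypt-rich fractions were combined.

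Cells with at least 2000 UMIs and 200 genes were kept (30840 of 60706 barcodes). A cell entered a class when markers, at least 3 of them detected, took a set share of its UMIs (2% for enterocytes, 3% for goblet, 0.6% for enteroendocrine, 0.5% for tuft and 1% for T or NK cells, and 0.2% with at least 4 markers for myeloid cells). The shares were set after their distributions were seen. No doublet caller was run, 745 cells in more than 1 class were left out, and 4415 entered none. Of the cells, 3066 lay within 25% of the enterocyte limit. Enterocyte sums held between 39097438 and 61948067 UMIs per library.

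Counts were summed per library and class and tested with the edgeR 4.0.16 quasi-likelihood test in R 4.3.3 (TMM, minimum count 10, minimum total 15, robust), with Benjamini-Hochberg adjustment over all RNAs tested and a threshold of 0.05. Class and zone comparisons had the library as a block. DESeq2 1.42.0, other scalings, gates and filters and leaving out each library were alternatives. In simulated counts with a log2 change of 1, 183 of 195 changed genes were recovered in enterocytes, 160 of 190 in goblet and 24 of 169 in myeloid sums. Libraries of 1 label differed by more than sampling noise (chi-square per degree of freedom between 6.76 and 23.0). The members and lists were chosen with earlier results of these data known. Named genes are the members, every other pathway gene called in enterocytes or myeloid cells (1 is counted but not reported here), and genes most like a member. The subclasses of enteroendocrine and myeloid cells, the goblet values and the values given for comparison lists were chosen after values were seen. Coordinates are from GENCODE M21 and promoter sequences from RefSeq (GRCm38.p6).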

Additional observations from a re-analysis of the deposited data

Results flagged for a closer look

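For 6 members the label difference in tip cells differed from that in lower cells by the test of the difference itself (edgeR interaction of zone and label, library as a block). This test called 28.4% of all RNAs tested. The tip minus lower value was 0.76 for Rbp2 (adjusted p = 8.19e-12), 0.37 for Aldh1a1 (adjusted p = 2.59e-04) and 0.25 for Isx (adjusted p = 0.00791) on the log2 scale. It was -1.20 for Rdh7 (adjusted p = 6.51e-10), -0.60 for Lrat (adjusted p = 0.00273) and -0.45 for Dhrs3 (adjusted p = 0.00372). The calls of Isx (0.20), Dhrs3 (-0.35) and Lrat (-0.36) were lost without IE-HuR-/- replicate 1, replicate 2 and replicate 2, in that order. With the score cut at the same values in all libraries, Lrat was not called (-0.33, edgeR adjusted p = 0.112). Tip and lower are ranks within a library, and equal ranks need not be equal places on the villus. In T or NK cells, the reference for free RNA, Rdh7 was at 10.2 and 1.70 CPM and Lrat at 2.51 and 0.510 CPM. Aldh1a1 was at 37.3 and 20.9 CPM there. T or NK cells were shallower than tip or lower cells, so CPM do not compare free RNA per cell. The part of free RNA in the values of Rdh7, Lrat and Aldh1a1 was not tested. The groups of 3 libraries were too small for a search for single outlying libraries.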

How the results depend on the processing

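Of 1090 recomputed values, 1020 were labelled the same. For fold changes this meant the same direction and the same side of the threshold. For counts of called RNAs it meant staying within a set ratio of the main count, and for shares of cells the same direction alone. Members called in lower cells ran from 3 to 6 with single libraries left out, against 4 in the main test, and were labelled the same. Without TMM scaling 4 members in place of 7 were called in enterocytes, and signs turned for Isx (-0.00043), Scarb1 (-0.15) and Rdh9 (-0.075) there, for Isx in goblet cells (-0.036), for Aldh1a1 (-0.15, then called), Bco1 (-0.16) and Scarb1 (-0.22) in tip cells for Isx in lower cells (-0.088) and for Isx between tip and lower cells (-0.059). Scarb1 in enterocytes was -0.010 when cells needed 500 genes and no more than 25% mitochondrial UMIs, and -0.062 over all epithelial cells. With the zone score cut at the same values in all libraries, an alternative chosen after seeing the data, Scarb1 in tip cells was -0.12, Bco1 in lower cells -0.080 and the interaction of Bco1 0.30, and Aldh1a1 in tip cells was called higher (0.30). At 5000 UMIs a cell the differences in the share of cells turned for Bco1 (-0.50 percentage points) and Isx (-0.0054).

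With single libraries left out, values ran from -0.057 to 0.088 for Scarb1 in enterocytes, -0.12 to 0.10 for Scarb1 in tip cells, -0.011 to 0.12 for Isx in goblet cells and -0.54 to 0.15 for the interaction of Bco1. The number of members called in T or NK cells ran from 0 to 2 and that of other pathway genes in myeloid cells from 0 to 1. Same-numbered libraries did not deviate together (correlations -0.13, -0.18 and 0.02). With the replicate number as a block 7 members were called in enterocytes and 0 other pathway genes in myeloid cells (Tgm2 2.16, adjusted p = 0.0544). The cause of these changes was not tested. Myeloid sums were shallow, and low genes there could not be tested.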

Other observations

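In goblet cells 16 of the 50 other pathway genes were tested, of which 3 rose and 5 fell, beside 16.7% of all RNAs called there. The 67 fibroblasts were too few for a test, with 3 to 6 cells per library labelled IE-HuR-/-. The 118 plasmacytoid dendritic cells were left out of the tests. Pooled over the libraries, Scarb1 was at 40.5 CPM in them (34 UMIs), against 6.54 CPM in enterocytes and 27.1 CPM in myeloid cells.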
